A study of Homo sapiens with 9 samples.

Results

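DDX3 and EIF3G, a pair of factors of translation initiation, were compared in the same 3 samples of K562 cells. K562 is a human erythroleukemia line, and its cells here had received no treatment and were UV-crosslinked. Binding was measured by antibody-barcode eCLIP (ABC), a form of CLIP with DNA-tagged antibodies. The tag of an antibody is joined to the RNA that its protein holds, so that 10 antibodies can share 1 tube and each read can be traced to its antibody by the tag. The members are the DDX3 library and the EIF3G library of each of the 3 10plex K562 samples, which are 6 of the 50 10plex libraries of the series. Both libraries of a sample came from 1 tube of cells and were compared as a pair. The catalogue number of the EIF3G antibody differs between the sample labels and the study's list, so that which antibody was used is not certain. The title of the third sample gives the line as K562 and its source name as K563, and it was taken as K562. ABC has no gel to separate protein-RNA complexes by size, so RNA held by a partner of the targeted protein cannot be told apart from RNA held by that protein itself. Nothing in the labels says whether the 3 samples were separate cultures, so the tests below measure the spread between these samples, which may be technical.

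EIF3G is an RNA-binding subunit of eIF3, the large complex that sits on the small ribosomal subunit and brings it to the 5′ end of an mRNA. DDX3 is an RNA helicase of the DEAD-box family that helps the ribosome pass structured 5′ untranslated regions (UTRs). The small subunit is loaded near the cap, scans along the 5′ UTR and stops at the start codon, so both proteins are known to act on the first part of an mRNA.

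Short stretches of the 5′ UTRs at the strongest peaks show what kind of RNA was held. Each is 30 bases of GRCh38, 5′ to 3′ on the strand of the mRNA, around the centre of the mRNA's peak with the most reads in replicate 3, where JUN had 2 EIF3G peaks with 15 reads and 1 of them is shown. Capitals mark bases that lie inside peaks of both libraries in that replicate, and lower case marks the rest. The first set holds mRNAs that took a larger share of the EIF3G library, taken at the EIF3G peak: JUN (chr1:58783480-58783509, minus strand), RAD54L (chr1:46248087-46248116, plus strand) and VCP (chr9:35072477-35072506, minus strand).
JUN: agcagcggaggaggggacaagtcgtcggag
RAD54L: atcaTCCCCACTCCACTCCGCCCAGTCTGG
VCP: GGGAGGAAGCGAGAGGGAAGCCGCTTGCGG
The second set holds mRNAs that took a larger share of the DDX3 library, taken at the DDX3 peak: NMU (chr4:55636238-55636267, minus strand), RPS12 (chr6:132814576-132814605, plus strand) and TRIB3 (chr20:381084-381113, plus strand).
NMU: GGGCACCAGGTGGAGCACCAGCTACGCGTG
RPS12: CCTGCCGCCGCCGAGTCGCGCGGAGGCGGA
TRIB3: cagcgcagcgggccggcccacctgctggtg
The third set holds mRNAs with many reads in both libraries, taken at the EIF3G peak: CLIC1 (chr6:31736323-31736352, minus strand), SET (chr9:128689430-128689459, plus strand) and ATP2A2 (chr12:110281375-110281404, plus strand).
CLIC1: AGCCCCTCCCAGTTCCCCCAGGGACGGCCA
SET: GCGAGGGGGAGGGAGAGCGAGCGAGCGCCG
ATP2A2: TCGCCTCCCTCGCCGCGTTCCGCCCTCAGT

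A peak was called enriched when its P was below 0.001 and its fold above 8 over an external background, both as the authors deposited them, and an mRNA was called bound when the centre of an enriched peak lay in one of its exons. The DDX3 libraries held far more enriched peaks, with 8579, 8374 and 10696 in replicates 1, 2 and 3, against 1405, 2262 and 2529 in the EIF3G libraries. Of these, 6485, 6780 and 8769 DDX3 peaks and 704, 1407 and 1671 EIF3G peaks lay in exons of mRNAs. The other enriched peaks differed in kind, as exons of noncoding RNAs took 20.3% to 34.6% of the EIF3G peaks and 8.78% to 11% of the DDX3 peaks. The reads in mRNA peaks summed to 37877, 67683 and 91829 for DDX3 and to 6895, 14803 and 16741 for EIF3G. Reads in mRNA peaks thus differed between the libraries in every sample. They are not the total reads of a library, by which the deposited fold is normalized. In replicate 1, 3 reads over 1 background read were a log2 fold of 5.83 for DDX3 and 5.25 for EIF3G. In replicate 2 they were 5.23 and 4.54. For 4 reads over 1 in replicate 3 the folds were 5.56 and 5.19. The same reads thus gave a larger fold for DDX3 in each sample. The DDX3 list was also shortened to the length of the EIF3G list. This was done for shared mRNAs, 5′ UTR share, distances from cap and start codon, 5′ UTR length, GC content and upstream ATGs. It was not done for site overlap, offsets of the strongest peaks, length classes, folding, base composition, reads of single mRNAs or gene lists. At least 94.1% of the merged peaks had no more than 1 read in the background, so enrichment was in effect a minimum of 3 or 4 reads in a peak.

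Most of the mRNAs bound by EIF3G were also bound by DDX3. DDX3 bound 2900, 2841 and 3685 mRNAs and EIF3G bound 414, 743 and 942, with 368, 650 and 863 in both lists. The shared mRNAs were 89.3% ± 2.1 (SD, n = 3) of the EIF3G lists and 19.7% ± 6.04 of the DDX3 lists. Only 46, 93 and 79 mRNAs of a sample were bound by EIF3G and not by DDX3. With lists of equal length, the shared mRNAs fell to 49.7% of the EIF3G list. The long lists of other proteins in the same tubes also held many of the mRNAs of EIF3G, with 85.7% for PRPF8, a core protein of the spliceosome, and 83.9% for FAM120A, against 25.4% for PUM2, which had the fewest peaks.

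Most EIF3G sites were also DDX3 sites. Of the EIF3G peaks in mRNAs, 66.3%, 64.0% and 71.2% overlapped a DDX3 peak, a mean of 67.2% ± 3.66 (SD, n = 3). The share was 73.0% ± 3.48 for EIF3G peaks in 5′ UTRs and 59.7% ± 2.49 for those elsewhere in mRNAs. For the other 8 libraries of the same tubes it ran from 9.14% for PUM2 to 48.1% for RBFOX2, and FAM120A, with 21719 enriched mRNA peaks on average against 7345 for DDX3, reached 38.6%. In each of the 3 samples the share was higher for DDX3 than for any of the other 8 libraries. Of the DDX3 peaks, 11.9% ± 3.86 overlapped an EIF3G peak. No test was made on these shares, since they depend on the number of peaks in each list.

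In all 3 samples, DDX3 bound 1862 mRNAs and EIF3G bound 276, and 254 were bound by both. Of the mRNAs bound by both, the 5 with the highest mean RPM (reads per 1000000 reads in mRNA peaks) over the 6 libraries were SET, CLIC1, ALDOA, XPO1 and ATP2A2. SET, which encodes a histone chaperone and phosphatase inhibitor, had 208, 270 and 392 reads in DDX3 peaks and 134, 193 and 169 in EIF3G peaks. CLIC1, which encodes a chloride intracellular channel protein, had 180, 272 and 308 reads with DDX3 and 118, 241 and 145 with EIF3G. These counts were of the same order although the DDX3 libraries held several times more reads in mRNA peaks. ALDOA, which encodes the glycolytic enzyme aldolase A, had 319, 508 and 662 reads with DDX3 and 65, 117 and 162 with EIF3G. For ALDOA the share of the library was alike, with means of 7712 RPM for DDX3 and 9003 RPM for EIF3G (adjusted p = 0.558, limma).

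DDX3 bound 958 mRNAs in all 3 samples that EIF3G bound in none, and the 5 with the highest mean RPM over the 6 libraries were PRRC2A, NUDT3, PRKCB, TRIB3 and CYC1. PRRC2A, which encodes a large RNA-associated protein, had 55, 86 and 124 reads in DDX3 peaks. EIF3G had 12, 6 and 9 reads on this mRNA, so this class does not mean that EIF3G was absent. These reads are sums over peaks of no more than 3 reads each, below the limit for enrichment. They did not all lie at the DDX3 peaks, as some were in the CDS at 1399 nt in replicate 1 and at 5374 nt in replicate 2. CYC1, which encodes cytochrome c1 of the respiratory chain, had 48, 51 and 97 reads with DDX3 and an EIF3G peak in replicate 2 alone, with 6 reads. In the other direction, 2 mRNAs, ARHGEF40 and KIAA1328, were bound by EIF3G in all 3 samples and by DDX3 in none. ARHGEF40 encodes a guanine nucleotide exchange factor, and its EIF3G peak lay in the coding sequence (CDS) at the same place in each sample, with 8, 10 and 11 reads. KIAA1328 had an EIF3G peak in the 3′ UTR, with 4, 12 and 15 reads, and neither mRNA had a DDX3 peak. The mRNA of DDX3X itself was bound by DDX3 in 3 samples and that of EIF3G by DDX3 in 1, and EIF3G bound neither.

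Both libraries were rich in 5′ UTR peaks, and the EIF3G libraries more so. The 5′ UTR held 33.1%, 36.9% and 39.7% of the enriched mRNA peaks of DDX3 and 55.8%, 50.6% and 61.2% of those of EIF3G, and every EIF3G library stood above every DDX3 library. The means were 36.6% ± 3.33 for DDX3 and 55.9% ± 5.31 for EIF3G (SD, n = 3), against 2.47% to 11.2% for the other 8 libraries. The CDS took 50.6% ± 3.34 of the DDX3 peaks and 35.5% ± 3.05 of the EIF3G peaks, and the 3′ UTR 12.8% ± 3.19 and 8.62% ± 2.31. The difference of −19.3 percentage points had an exact p of 0.25 in a two-sided sign-flip permutation test of the 3 pairs, which is the smallest p that 3 pairs allow. This limit holds for each paired test here, and the 5 planned measures had an adjusted p (Benjamini-Hochberg) of 0.25 each. With lists of equal length, the DDX3 share was 55.7% and the difference −0.21 percentage points (exact p = 0.75, with samples in both directions), where the strongest DDX3 peaks are set against the full EIF3G list. With stricter limits on both lists, P below 1e-05 and fold above 16, the shares were 45.7% and 67.2%, a difference of −21.5 (exact p = 0.25).

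**Figure D1:**
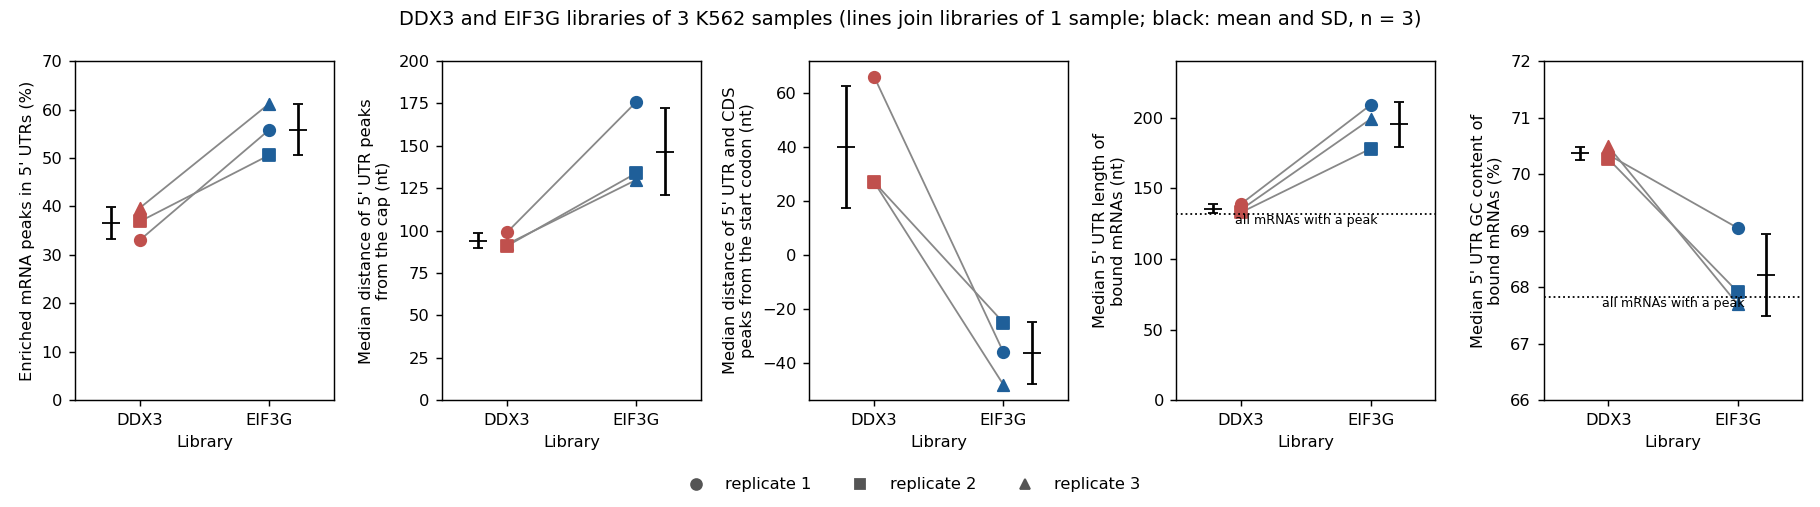
Values of the DDX3 and EIF3G libraries in the 3 K562 samples, with a line joining the libraries of 1 sample, black bars for the mean and SD and a dotted line for all mRNAs with a peak. The 5′ UTR share of peaks, the distance from the cap and the 5′ UTR length are higher for EIF3G in each sample, while the distance from the start codon and the 5′ UTR GC content are higher for DDX3. The axis of the GC content does not start at 0.

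Within 5′ UTRs, EIF3G peaks lay farther from the cap. The median distance from the annotated start of the transcript to the centre of the peak was 99, 91 and 92 nt for DDX3 and 176, 134 and 130 nt for EIF3G. The means were 94.0 ± 4.36 nt and 147 ± 25.5 nt, and the DDX3 and EIF3G libraries did not overlap (difference −52.7 nt, exact p = 0.25). The difference kept its size with lists of equal length, at −55.3 nt. Relative to the length of its 5′ UTR, however, the median peak was at 51.5% ± 0.49 of the way for DDX3 and 52.5% ± 3.07 for EIF3G, and these values overlapped (exact p = 1). The distance in nucleotides was thus larger for EIF3G in 5′ UTRs that were themselves longer.

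**Figure D2:**
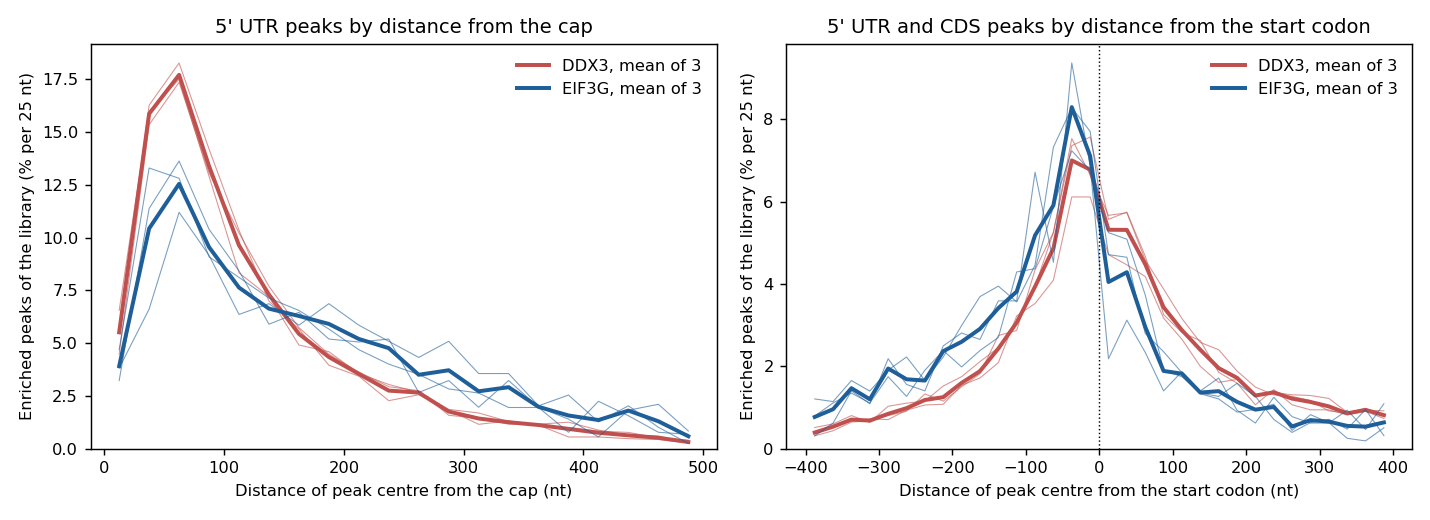
Share of the enriched peaks of a library in steps along the 5′ UTR (distance from the cap in nt, left) and around the start codon (signed distance in nt, right), with thin lines for the 3 K562 samples and thick lines for their mean. The EIF3G profile is lower near the cap and higher beyond it, and around the start codon it is higher upstream and lower downstream than that of DDX3.

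Within classes of 5′ UTR length, the distance from the cap was alike in the shorter classes and larger for EIF3G in the longer ones. In 5′ UTRs under 100 nt, the median distance from the cap was 41.3 ± 1.53 nt for DDX3 and 39.7 ± 2.89 nt for EIF3G (SD, n = 3), and in those of 100 to 200 nt it was 77.7 ± 2.52 nt and 74.8 ± 0.76 nt. In both classes the DDX3 and EIF3G libraries overlapped. In 5′ UTRs of 200 to 400 nt, DDX3 peaks had medians of 134, 130 and 134 nt and EIF3G peaks 171, 145 and 147 nt. In those of at least 400 nt the medians were 240, 222 and 252 nt for DDX3 and 296, 284.5 and 266 nt for EIF3G. In these longer 5′ UTRs EIF3G peaks were farther from the cap in each sample and the libraries did not overlap. The class of at least 400 nt has no upper limit. Its median distance from the start codon was −345 ± 10.9 nt for DDX3 and −343 ± 20.5 nt for EIF3G. From 200 to 400 nt it was −137 ± 2.08 nt and −121 ± 15.1 nt. Whether 5′ UTR lengths differed between the libraries within a class was not tested.

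In mRNAs bound by both proteins the strongest peaks had a median offset of a few nucleotides. Of the 336, 594 and 827 such mRNAs whose position could be compared, the strongest EIF3G peak lay a median of 2, 3 and 1 nt farther along the mRNA than the strongest DDX3 peak. The offsets spread widely, as both peaks lay within 10 nt in 24.8% ± 1.71 of the mRNAs (SD, n = 3), the EIF3G peak farther in 40.2% ± 2.0 and nearer in 35% ± 1.73. In some mRNAs the peaks of the libraries lay well apart in several samples. In SET, the strongest DDX3 peak was 99, 96 and 212 nt from the cap and the strongest EIF3G peak 236, 234 and 223 nt. In XPO1, which encodes the nuclear export receptor exportin 1 and has a 5′ UTR of 801 nt, the strongest EIF3G peak was at 241, 243 and 236 nt and the strongest DDX3 peak at 508, 129 and 130 nt. CLIC1 had the strongest peaks of both libraries at almost the same place, with medians over the samples of 194 nt for DDX3 and 193 nt for EIF3G.

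**Figure D3:**
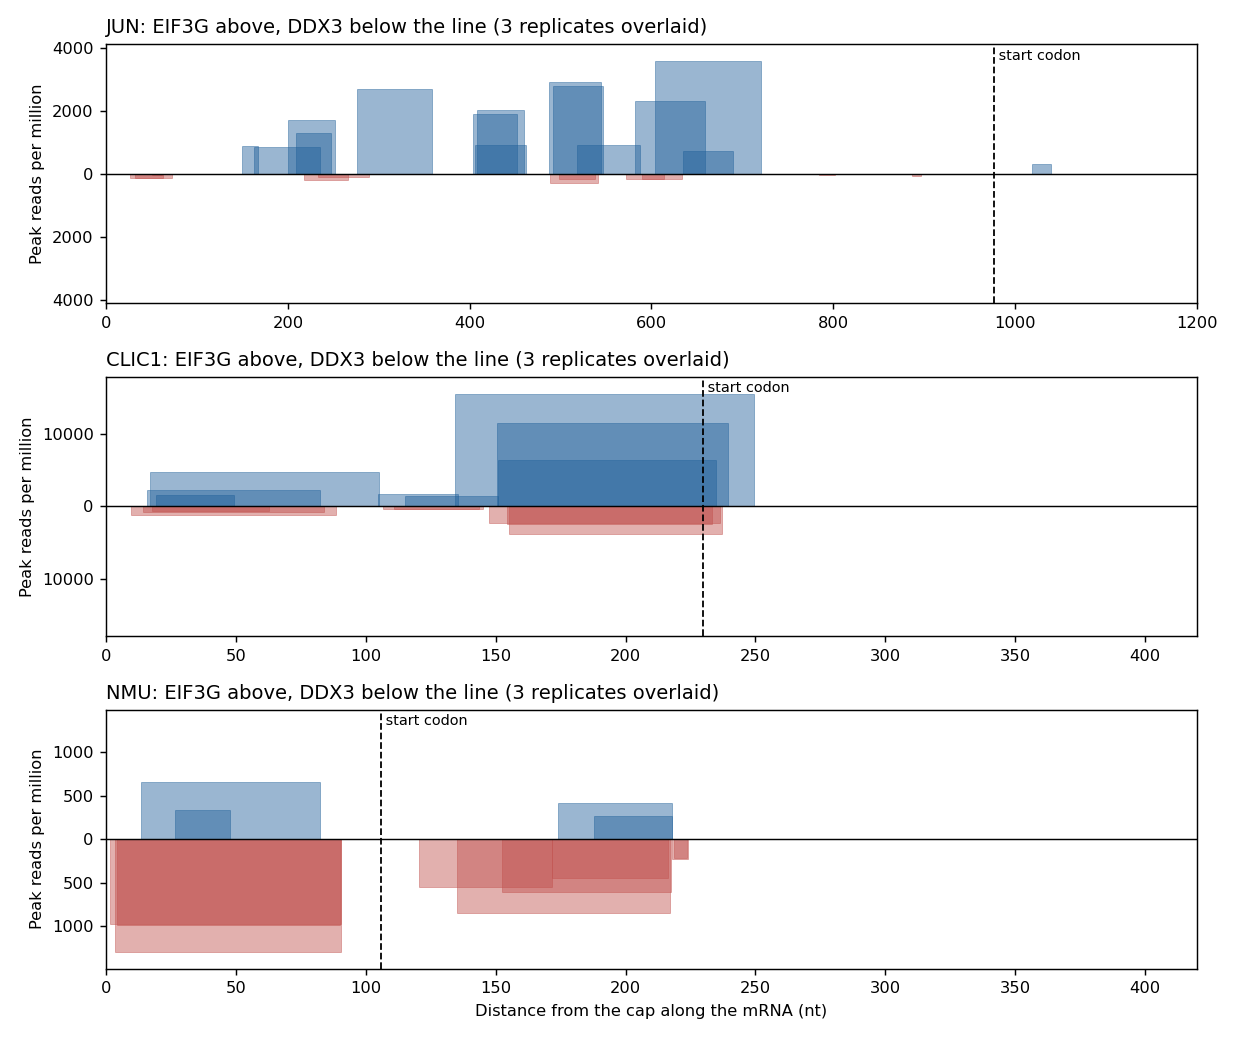
Peaks along JUN, CLIC1 and NMU by distance from the cap in nt, with the height of each box its reads as RPM, EIF3G above and DDX3 below the line, the 3 replicates overlaid and the start codon dashed. In CLIC1 the highest peaks of both libraries overlap, in JUN the EIF3G boxes are the higher and in NMU the DDX3 boxes. The peaks of JUN in its 3′ UTR, of DDX3 in all 3 replicates and of EIF3G in replicate 3, and the EIF3G peak of NMU at 510 nt in replicate 1 lie beyond the ranges drawn.

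Around the start codon, the median of DDX3 peaks was in the first part of the CDS and that of EIF3G peaks in the 5′ UTR. Over peaks in 5′ UTRs and CDS, the median distance from the A of the start codon was 66, 27 and 27 nt downstream for DDX3. For EIF3G the signed medians were −36, −25 and −48 nt, which is upstream in every sample. The means were 40 ± 22.5 nt and −36.3 ± 11.5 nt (SD, n = 3), a difference of 76.3 nt (exact p = 0.25). With lists of equal length both medians were upstream, at −24.5 nt for DDX3, and the difference was 11.8 nt.

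Peaks within 50 nt of the start codon made up like shares of both full lists, with 24.6% ± 2.63 for DDX3 and 23.9% ± 2.06 for EIF3G. The difference was 0.72 percentage points, with a higher value for DDX3 in 3 of 3 samples. Among the strongest DDX3 peaks, start codons were more frequent, with 33.5% in the lists of equal length against 23.9% for EIF3G. A further set held peaks with P below 0.001 against the complement control, made of the reads of all other 9 barcodes in the tube. They also had a fold above 8 over the external background and a larger share of peak reads than in the other 9 libraries. No fold limit over the complement control was set, whereas the paper asked for more than 8-fold. In this set the shares were 32.0% and 21.9%. In the other 8 libraries this share was between 5.40% and 14%.

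The mRNAs bound by EIF3G had longer 5′ UTRs than those bound by DDX3. The median length was 139, 133 and 135 nt for DDX3 and 209, 178 and 199 nt for EIF3G, while that of all mRNAs with a peak in any of the 10 libraries was 131 to 133 nt. DDX3 was thus near the value of all mRNAs, and EIF3G was above it in each sample. The means were 136 ± 3.06 nt and 195 ± 15.8 nt (SD, n = 3; difference −59.7 nt, exact p = 0.25), and lists of equal length gave 133 nt and 195 nt. Of the mRNAs bound by EIF3G, 21.6% ± 1.34 had a 5′ UTR of at least 400 nt, against 11.7% ± 0.42 for DDX3.

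The 5′ UTRs of mRNAs bound by DDX3 were slightly richer in G and C. The median GC content was 70.3%, 70.3% and 70.5% for DDX3 and 69.0%, 67.9% and 67.7% for EIF3G, against 67.7% to 67.9% for all mRNAs with a peak. The difference of 2.15 percentage points was in the same direction in 3 of 3 samples (exact p = 0.25) and was 3.02 with lists of equal length. Folding of the first 100 nt of each mRNA with RNAfold gave medians of −39.6 ± 0.21 kcal/mol for DDX3 and −35.0 ± 0.26 kcal/mol for EIF3G (SD, n = 3), with −37.6 to −37.7 for all mRNAs with a peak. DDX3 thus bound mRNAs of predicted structure more stable than the median of all and EIF3G mRNAs of less stable structure, a difference of −4.57 ± 0.12 kcal/mol (SD of the 3 pairs, exact p = 0.25). The folding is a prediction from sequence, and for 5′ UTRs under 100 nt it took in the start of the CDS.

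The RNA at the 5′ UTR peaks themselves was richer in G for DDX3, and poorer in A and C. Bases were counted in a window of fixed width around the centre of each peak, whatever the width of the peak. G made up 37.2%, 38.3% and 37.2% of the bases in the windows of DDX3 peaks and 34.3%, 35.6% and 34.4% in those of EIF3G peaks, so that the libraries did not overlap. A was lower for DDX3, at 12.8% ± 0.12 against 14% ± 0.40 (SD, n = 3). C, at 36.5% ± 1.21 and 37.7% ± 1.97, was lower for DDX3 in each sample, although the libraries overlapped. T, at 13.2% ± 0.85 and 13.5% ± 1.48, also overlapped. The median GC content of the windows was 75.2% ± 1.13 for DDX3 and 73.2% ± 1.13 for EIF3G. Each of the G, A and C differences had an exact p of 0.25 (sign-flip permutation).

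A higher share of reads at matched mRNAs was then tested for each mRNA with a peak in all 6 libraries, which were 403 mRNAs. The value of an mRNA is its reads in peaks as RPM, with all reads in mRNA peaks of the library as the total, and log2 of this value plus 1 was fitted with limma with the sample as a block. EIF3G was higher for 153 mRNAs, which is 38.0% of those tested, and DDX3 for 11, which is 2.73%, at an adjusted p below 0.05. Of the 153, 151 were higher in the EIF3G library of 3 of 3 samples, and for 129 the libraries did not overlap. Of the 11, 10 were higher in the DDX3 library of 3 of 3 samples, and for 9 the libraries did not overlap. Of all 403 tested, 249 had the same direction in 3 of 3 samples and 183 did not overlap. Of the 239 not called, 88 and 45 did so. The calls were made from these same values, so the counts are no separate support for them.

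The median log2 difference of all 403 mRNAs, DDX3 minus EIF3G, was −0.68, and the tested mRNAs held 41.4%, 36.6% and 32.1% of the reads in mRNA peaks of the DDX3 libraries and 78.2%, 66.7% and 60.8% of those of the EIF3G libraries. Differences of single mRNAs are therefore given relative to this median, with the fitted value where it adds something. With each library centred on its median over the tested mRNAs, 48 mRNAs were higher for DDX3 and 80 for EIF3G. With the log2 fold of the strongest peak over the external background in place of the share, 300 were higher for DDX3 and 2 for EIF3G, LUC7L2 and CHTOP, which were chosen for naming after their values were seen. Which library had more calls thus depended on the scale. A requirement of a peak in all 6 libraries also limits the DDX3 side, since 3 reads, the fewest found, were 435, 203 and 179 RPM in the EIF3G libraries and 79.2, 44.3 and 32.7 RPM in the DDX3 libraries.

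**Figure D4:**
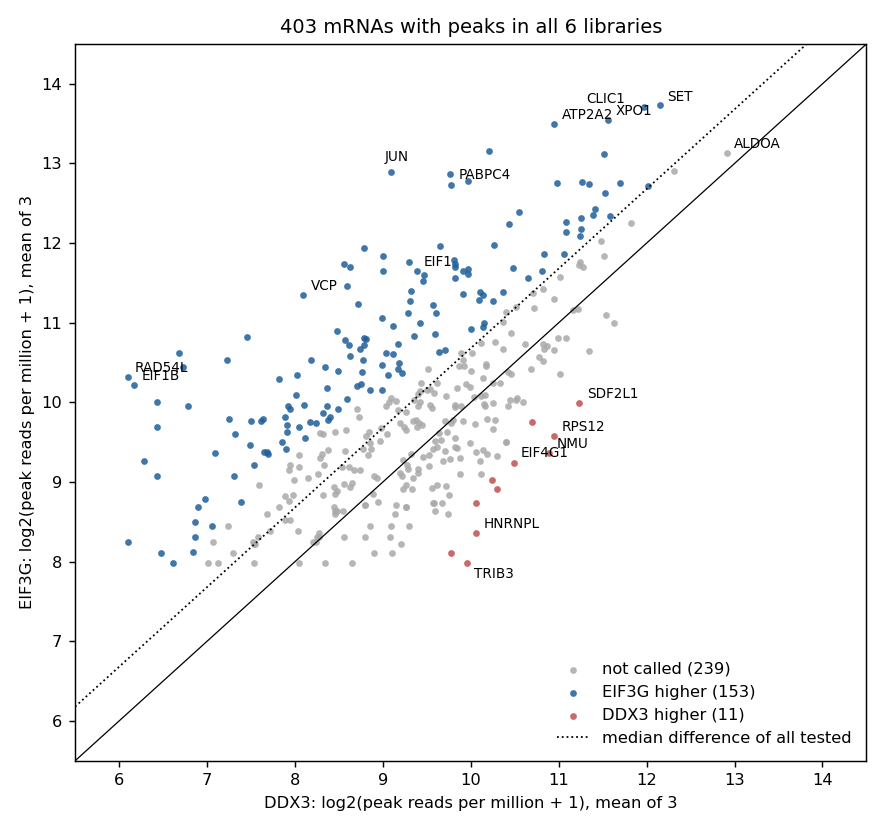
Each of the 403 mRNAs tested by its mean log2(RPM + 1) over the 3 DDX3 libraries (horizontal) and the 3 EIF3G libraries (vertical), with the 153 mRNAs higher for EIF3G in blue, the 11 higher for DDX3 in red and the others in grey. The solid line marks equal shares and the dotted line the median difference, and JUN lies far above both, with mean values of 642 RPM for DDX3 and 8627 RPM for EIF3G.

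JUN, which encodes a subunit of the transcription factor AP-1, had one of the clearest differences. It had 766, 931 and 229 RPM in the DDX3 libraries and 8412, 13646 and 3823 RPM in the EIF3G libraries, from 29, 63 and 21 reads and 58, 202 and 64 reads. Every EIF3G value was above every DDX3 value. RPM is taken over the reads in mRNA peaks, which were fewer for EIF3G, so 1 read was more RPM there. The JUN reads themselves were also more for EIF3G in each sample. The difference was −3.12 on the log2 scale relative to the median of all, and −3.80 ± 0.31 (SE) as fitted (adjusted p = 7.54e-30, limma). The strongest EIF3G peaks of JUN lay in its 5′ UTR of 977 nt, at 516 nt from the cap in replicate 1, at 662 nt in replicate 2 and, with 15 reads each, at 434 and 553 nt in replicate 3. The strongest DDX3 peaks of replicates 2 and 3 were at 515 and 261 nt, while in replicate 1 3 peaks had 6 reads each, at 518 and 612 nt in the 5′ UTR and at 2420 nt in the 3′ UTR.

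Other mRNAs higher for EIF3G had fewer reads. VCP, which encodes an ATPase that extracts proteins for degradation, had 211, 399 and 240 RPM with DDX3 and 2466, 3513 and 2031 RPM with EIF3G. The difference was −2.57 relative to the median and −3.25 ± 0.45 (SE) as fitted (adjusted p = 2.60e-11, limma). RAD54L, a DNA repair helicase gene, had 79.2, 44.3 and 87.1 RPM and 2030, 608 and 1673 RPM (−3.54 relative to the median), although DDX3 had only 3 to 8 reads. ROCK1, a kinase of the actin cytoskeleton, had 79.2, 148 and 98.0 RPM with DDX3 and 1595, 946 and 1792 RPM with EIF3G (−3.04 relative to the median). The DDX3 reads of ROCK1 were 3, 10 and 9. In all of these mRNAs every EIF3G library was above every DDX3 library. The same held for ARIH1, a ubiquitin ligase gene, at −3.26 relative to the median, for CHTOP, an mRNA export factor gene, at −2.90, and for DHRS3, which encodes a retinal reductase, at −2.68. It also held for TRIM27 at −2.63 and PPP1R10, which encodes a regulator of protein phosphatase, at −2.58. DDX3 reads were few here too, with 7, 7 and 5 for ARIH1, 3, 3 and 16 for CHTOP and 3, 7 and 7 for PPP1R10. In replicate 2 TRIM27 had 12 reads with DDX3 and 7 with EIF3G. On the scale of the log2 fold over the background, the fitted values of TRIM27 and PPP1R10 turned to 0.19 and 0.024. Under that scale JUN (−0.69), VCP (−0.58), RAD54L (−0.75), ROCK1 (−0.40), ARIH1 (−0.45) and DHRS3 (−0.01) did not pass the test. With a peak in at least 4 of the 6 libraries, CHTOP and PPP1R10 were no longer called.

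The mRNAs higher for DDX3 rested on few EIF3G reads. NMU, which encodes the neuropeptide neuromedin U, had 1848, 1817 and 2047 RPM with DDX3 and 435, 608 and 1075 RPM with EIF3G, the latter from 3, 9 and 18 reads. Its difference was 2.21 relative to the median and 1.53 ± 0.38 (SE) as fitted (adjusted p = 0.000353, limma), and its strongest DDX3 peak was 46 or 47 nt from the cap in each sample. TRIB3, which encodes a stress-induced pseudokinase, had 1505, 798 and 806 RPM with DDX3 and 435, 203 and 179 RPM with EIF3G, which was 3 reads in each EIF3G library. It had the largest difference on this side, 2.65 relative to the median and 1.97 ± 0.58 (SE) as fitted (adjusted p = 0.00277, limma). HNRNPL, a splicing regulator gene, had 1320, 1285 and 719 RPM and 435, 270 and 299 RPM, a difference of 2.38. For these 3 mRNAs the DDX3 and EIF3G libraries did not overlap. When mRNAs with a peak in at least 4 of the 6 libraries were tested, NMU kept its call (adjusted p = 0.016, limma), as did RPS12 and SDF2L1, while TRIB3, HNRNPL, TMEM158, DAZAP1, HMGB2, EIF4G1 and KHSRP lost theirs.

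RPS12, which encodes a protein of the small ribosomal subunit, had 2772, 1477 and 1895 RPM with DDX3 and 435, 946 and 1075 RPM with EIF3G. It was at 2.06 relative to the median and 1.38 ± 0.36 (SE) as fitted (adjusted p = 0.000805, limma). SDF2L1, which encodes a protein of the endoplasmic reticulum, had 2429, 2733 and 2113 RPM and 1305, 1351 and 597 RPM, at 1.92, and was the only one of the 10 named here that EIF3G bound in all 3 samples. EIF4G1, the scaffold of the cap-binding complex, was at 1.93, with its strongest DDX3 peaks centred 86, 12 and 15 nt from the annotated start. In replicates 2 and 3 these peaks began upstream of the annotated start, so that their distance from the cap is uncertain. TMEM158, DAZAP1, HMGB2 and KHSRP were at 2.34, 2.06, 2.0 and 1.89. Leaving out 1 replicate ended the call for RPS12 without replicate 1, for TRIB3, TMEM158 and DAZAP1 without replicate 3, for EIF4G1 without replicates 1 or 2, and for HMGB2 and KHSRP without replicates 1 or 3. The lowest fitted values among these were 0.64 for KHSRP and 0.68 for DAZAP1.

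The difference between the libraries moved with the length of the 5′ UTR. The called mRNAs higher for EIF3G had a median 5′ UTR of 351 nt, those higher for DDX3 107 nt, and all tested 223 nt. In 4 groups of the 403 mRNAs by 5′ UTR length, the median fitted difference was −3.5e-05 from 8 to 106 nt, −0.50 from 107 to 223 nt, −0.92 from 226 to 385 nt and −1.51 from 389 to 1349 nt. EIF3G was higher for 17 of 102, 23 of 100, 48 of 100 and 65 of 101 mRNAs, and DDX3 for 5, 4, 1 and 1. Across the 403 mRNAs Spearman's rho between the difference and 5′ UTR length was −0.50 (Pearson's r = −0.47 with log2 length). With GC content rho was 0.11 over 398 mRNAs. These correlations describe mRNAs of the same 6 libraries, which are not independent replicates.

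**Figure D5:**
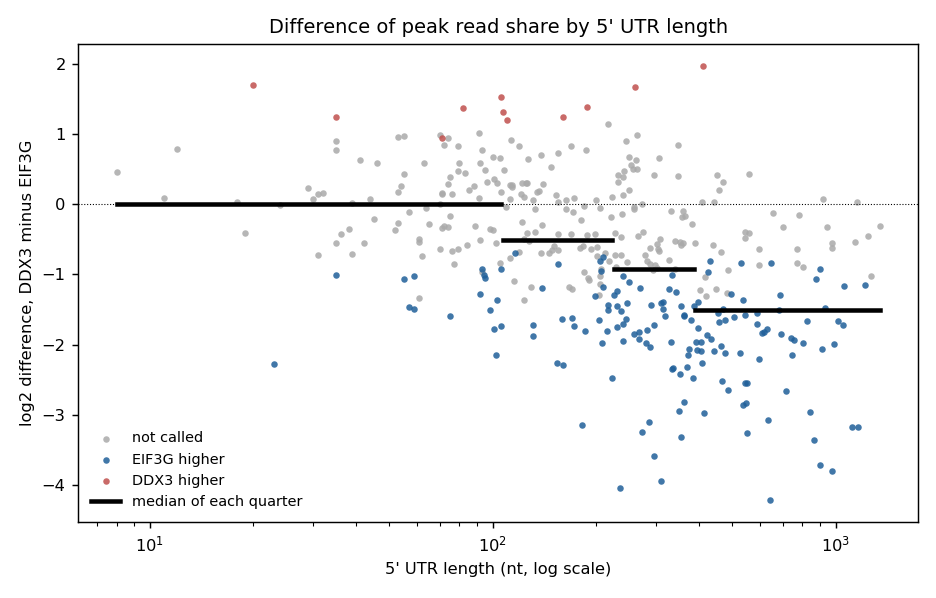
Fitted log2 difference, DDX3 minus EIF3G, of each of the 403 mRNAs tested against 5′ UTR length in nt on a log axis, with called mRNAs in blue (EIF3G higher) and red (DDX3 higher) and a black bar for the median of each group by length. The median falls from near 0 in the shortest group to −1.51 in the longest.

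The functions of the bound mRNAs were compared by lists of genes. Of all 10217 mRNAs with a peak in any of the K562 libraries, DDX3 bound 18.2% and EIF3G 2.7% in all 3 samples. Among 80 mRNAs of cytoplasmic ribosomal proteins, which have short 5′ UTRs with a median of 46 nt, DDX3 bound 54 and EIF3G 19. Of the 30 tested, 4 were higher for EIF3G and 1 for DDX3, with a median fitted difference of 0.02 against −0.68 for all mRNAs tested. RPL38, a protein of the large subunit, was on the EIF3G side, with 1135, 1019 and 773 RPM for DDX3 and 2756, 3513 and 3465 RPM for EIF3G (−1.06 relative to the median, adjusted p = 5.65e-07, limma). RPS25 (−0.81) and RPL18 (−0.33) were also on the EIF3G side, and RPS12 was on the DDX3 side. Many ribosomal protein genes have processed pseudogenes, so that their values are uncertain.

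Among 55 mRNAs of translation initiation factors, DDX3 bound 22 and EIF3G 7 in all 3 samples. Of the 8 tested, 5 were higher for EIF3G and 1, EIF4G1, for DDX3, against 38.0% and 2.73% of all mRNAs tested. The median fitted difference was −1.85 against −0.68 for all, and with few mRNAs tested the list was not compared further. PABPC4, a poly(A)-binding protein gene with a 5′ UTR of 839 nt, had 1188, 591 and 958 RPM with DDX3 and 7397, 6418 and 6630 RPM with EIF3G (−2.28 relative to the median and −2.96 ± 0.30 as fitted, adjusted p = 2.83e-20, limma). PABPC1, which encodes the main cytoplasmic poly(A)-binding protein, had 4039, 3029 and 2026 RPM with DDX3. With EIF3G it had 11023, 5472 and 11708 RPM. EIF1 and EIF1B, whose proteins help select the start codon, were at −1.58 and −3.36 relative to the median, and EIF5, which encodes the activator of the GTPase eIF2, at −1.41. EIF1B had 3, 7 and 4 reads with DDX3 and was no longer called with a peak in at least 4 of the 6 libraries. On the log2 fold scale it was at −0.33 and did not pass. In each of these 5 mRNAs every EIF3G library was above every DDX3 library. Of the 13 mRNAs of eIF3 subunits, DDX3 bound 6 in all 3 samples and EIF3G none, and none could be tested.

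Chaperone mRNAs were 27 of 63 bound by DDX3 and 6 by EIF3G. HSPA5, the chaperone of the endoplasmic reticulum also called BiP, had 3010, 2985 and 1644 RPM with DDX3 and 12183, 7363 and 3823 RPM with EIF3G (−0.83 relative to the median). HSP90AB1 (−0.37), HSP90AA1 (−0.34) and HSP90B1 (−0.24), of the HSP90 family, also passed on the fitted value. For HSP90AA1 the fitted value was −1.02 ± 0.31 (SE). EIF3G was thus higher for 4 of the 6 tested, against 38.0% of all mRNAs tested, and the median fitted difference of the list was −0.97 against −0.68 for all.

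Growth and cell cycle genes had few mRNAs in the test, and all that passed were on the EIF3G side. Of 20 mRNAs of growth-signalling kinases, DDX3 bound 12 and EIF3G 3, and those tested included CSNK1A1 (−1.43 relative to the median) and PIM1 (−0.29). Of 40 mRNAs of cyclins and cyclin-dependent kinases, DDX3 bound 11 and EIF3G 4, and 2 of the 3 tested, CDK6 at −1.34 and CCND2 at −1.29 relative to the median, were higher for EIF3G. CDK6, a kinase that drives entry into S phase, had 475, 517 and 348 RPM with DDX3 and 1305, 2364 and 1852 RPM with EIF3G. Among all mRNAs tested 153 of the 164 calls were on the EIF3G side, so this direction is not particular to these lists.

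In other lists of housekeeping genes, as among all mRNAs, more were bound by DDX3 than by EIF3G. DDX3 bound 46 of 80 mRNAs of the respiratory chain and ATP synthase and EIF3G 3, and none of the 5 tested passed. DDX3 bound 18 of 44 proteasome mRNAs and EIF3G none. Of 20 mRNAs of aminoacyl-tRNA synthetases and their partners, DDX3 bound 14 and EIF3G 1. DDX3 bound 28 of 34 mRNAs of hnRNP and SR splicing factors and EIF3G 8, with HNRNPL higher for DDX3 and HNRNPD (−0.71 relative to the median) and HNRNPAB (−0.78) for EIF3G. Of 10 mRNAs of elongation and termination factors, DDX3 bound 8 and EIF3G 3, and GSPT1, a termination factor gene, was higher for EIF3G at −0.84 relative to the median.

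Lists chosen for known links to the proteins were short. Of 8 mRNAs described as dependent on DDX3, DDX3 bound 6 and EIF3G 1, TGFB1, which was also the only one tested, at −0.38 relative to the median. Of JUN and BTG1, described as targets of eIF3, DDX3 bound both in all 3 samples and EIF3G JUN alone. Of 12 mRNAs with control by upstream reading frames, DDX3 bound 4 and EIF3G none. Of 35 mRNAs of DEAD-box helicases, DDX3 bound 7 and EIF3G 3. Of the 4 tested, DDX5, DDX6 and DDX39B (−0.94, −0.33 and −1.12 relative to the median) passed on the EIF3G side, against 38.0% of all mRNAs tested.

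The last lists were histones, zinc finger genes and genes of the erythroid line. DDX3 bound 23 of 48 mRNAs of replication-dependent histones and EIF3G 3, and DDX3 bound 13 of 283 zinc finger mRNAs and EIF3G 1. In each of these lists 1 mRNA passed on the EIF3G side, H2BC12 at −0.79 and ZNF146 at −0.98 relative to the median. Of 11 marker genes of K562, which are globins, other erythroid genes, BCR and LIN28B, DDX3 bound 8 and EIF3G 4 in all 3 samples, BCR among both, while LIN28B was bound by neither. All 11 had a peak in at least 13 of the 30 libraries. HBE1, embryonic globin, was higher for EIF3G, with 3749, 3723 and 2614 RPM with DDX3 and 6672, 8039 and 6212 RPM with EIF3G. Its difference was −0.38 relative to the median. The globins HBG1 and HBG2, and HBA1 and HBA2, are nearly identical, so that reads could not be given to one of them with certainty.

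The same pair was compared in the 2 10plex samples of HEK293T cells, a line of human embryonic kidney cells that the titles give as HEK293T, the study's methods as HEK293XT and 1 label field as K562. There the 5′ UTR share was 46.9% and 42.1% for DDX3 and 61.1% and 51.4% for EIF3G, and the distance from the cap 147 and 153 nt against 209 and 208 nt. The 5′ UTR length of the bound mRNAs was 213 and 210 nt for DDX3 and 288.5 and 267 nt for EIF3G. Each of the 5 planned measures differed between DDX3 and EIF3G in the same direction as in K562 cells, with an exact p of at least 0.3 for the difference between the cell lines. Of the 144 mRNAs called in K562 cells that could be tested in HEK293T cells, 134 had the same sign. JUN was again higher for EIF3G (−2.75 ± 0.20 as fitted), while KHSRP, EIF4G1 and HMGB2 had the opposite sign (−0.81, −0.56 and −0.68) and did not pass there. HNRNPL (0.42), DAZAP1 (0.37) and RPS12 (0.18) on the DDX3 side and EIF1B (−1.90) and DHRS3 (−1.81) on the EIF3G side kept their sign and did not pass either, while NMU, TRIB3, SDF2L1 and TMEM158 were not among those tested there.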

How the data were processed

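The authors trimmed adapters with cutadapt 2.8, aligned reads to GRCh38 with STAR 2.7.6, both versions as in the submitters' processing notes, collapsed PCR duplicates with molecular identifiers, and ran CLIPper on each library. They deposited each CLIPper peak with its p-value and a whole-number display score, and the merged peaks with a −log10 P and a log2 fold of the reads in the peak over an external background. The study's methods give RNA-seq as this background, without naming the data set behind each library. They also deposited values against the complement control, made of all other 9 barcodes. No reads outside peaks were used, and no column of another series was found.

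Reads in peaks were solved as the whole numbers whose ratio and test give the authors' log2 fold and −log10 P. They were equal to the number in the authors' peak name for 97.5% to 98.2% of peaks in the 4 libraries whose names give it. Peak centres were placed on the MANE Select, else Ensembl canonical, transcript of GENCODE release 44, where the authors used release 35. Summed reads in mRNA peaks ran from 6895 to 91829 per library. They are reads in called peaks and not the total reads of a library, and tests on reads cover these libraries only.

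The 3 samples are true pairs, since both libraries of a sample came from 1 tube. Same-numbered libraries deviated together weakly, with correlations of 0.11 to 0.24, against −0.14 to 0.02 for other numbers. The deviations of a protein's 3 libraries sum to 0 for each mRNA, so these ranges are not independent of each other. Measures of positions and 5′ UTRs were tested by exact two-sided sign-flip permutation over samples. Reads of mRNAs were tested with limma 3.58.1 (lmFit and eBayes with trend) in R 4.3.3, with the sample as a block, a pseudocount of 1 RPM and Benjamini-Hochberg adjustment at 0.05. The prior degrees of freedom were infinite, so that all mRNAs shared 1 trended spread and the p-values do not use an mRNA's own. Tested on simulated data with 200 changed mRNAs, this fit recovered 198 and called 5 unchanged ones. The rate of wrong calls by this fit on the measured reads was not tested. Energies came from ViennaRNA 2.7.2, and GC content needed a 5′ UTR of at least 20 nt.

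The members, gene lists and tests were chosen with earlier results of these data known. Named mRNAs were the 10 called in each direction with the largest difference, the 5 with the highest mean RPM over the 6 libraries among those bound by both or by one in all 3 samples, members of the gene lists, and DDX3X and EIF3G. Some members of the gene lists and 1 list are not reported here. Alternatives were stricter limits (P below 1e-05 and fold above 16), all CLIPper peaks, lists of equal length ranked by P, the complement control, sites resembling the adapter left out (12 bases, at most 1 mismatch, within 30 nt), the transcript with the longest 5′ UTR, HEK293T samples, no replicate block, each replicate left out, and for limma a peak in at least 4 libraries, a pseudocount of 10, 5′ UTR peaks alone and the log2 fold. Joining touching peaks and centring each library on its median were chosen after seeing the data.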

Additional observations from a re-analysis of the deposited data

Results flagged for a closer look

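The share of bound mRNAs with an ATG in the 5′ UTR upstream of the start codon differed in opposite directions in the 2 cell lines. In K562 cells it was 33.4%, 31.7% and 34.1% for DDX3 and 30.9%, 30.0% and 33.5% for EIF3G, higher for DDX3 in 3 of 3 samples by a mean of 1.57 percentage points. In HEK293T cells it was 51.5% and 51.8% for DDX3 and 55.4% and 55.7% for EIF3G, a difference of −3.91 in the opposite direction in 2 of 2 samples. An exact permutation of the cell line labels over the samples gave p = 0.1 for the difference between the lines, which is the smallest p that 3 samples against 2 allow. Among all mRNAs with a peak in K562 cells the share was 38.4% to 38.9%. In K562 cells the direction was not stable either, as the difference was −8.68 with lists of equal length.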

How the results depend on the processing

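The difference in 5′ UTR share, distance from the cap, distance from the start codon, 5′ UTR length and 5′ UTR GC content kept its direction under all alternatives run, but with lists of equal length the first was −0.21 percentage points (exact p = 0.75, with samples in both directions) and the start-codon difference fell from 76.3 to 11.8 nt. The share of the EIF3G list that DDX3 also bound moved from 89.3% to 87.2% with all CLIPper peaks, 49.7% with lists of equal length, 58.0% over the complement control and 78.9% in HEK293T cells. The complement control of each protein includes the reads of the other. The share of bound mRNAs with an upstream ATG changed from 1.57 to −0.00965 percentage points under stricter limits, −8.68 with lists of equal length, −5.40 over the complement control and −3.91 in HEK293T cells. The cause was not tested for any of these. The count of 164 called mRNAs became 95 of 1490 with a peak in at least 4 of the 6 libraries (10 higher for DDX3 and 85 for EIF3G, where a missing peak counts as 0 reads and moves the median difference to 2.72), 305 of 2221 in HEK293T cells (54 and 251) and 302 with the log2 fold over the background (300 and 2). It was 150 of 220 with 5′ UTR peaks alone (3 and 147), 128 with each library centred (48 and 80) and 164 with a pseudocount of 10. On the log2 fold scale the called mRNAs kept their sign in 35 of 164, with TRIM27 at 0.19 and PPP1R10 at 0.024. In HEK293T cells KHSRP was at −0.81, EIF4G1 at −0.56 and HMGB2 at −0.68.

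Without the replicate block that pairs the libraries of a sample, 137 mRNAs were called (7 and 130), and the 5 planned measures had an exact p of 0.1, the smallest that 3 against 3 allow. DAZAP1, HMGB2 and KHSRP were no longer called without the block. Leaving out 1 replicate gave ranges of 110 to 139 called mRNAs, −22.1 to −17.6 percentage points for the 5′ UTR share, −60.0 to −40.5 nt from the cap, 63.5 to 88.5 nt around the start codon, −67.0 to −54.5 nt in 5′ UTR length, 1.83 to 2.57 percentage points in GC content and 88.2% to 90.3% for the shared mRNAs. For the relative position along the 5′ UTR the range was −2.06 to 1.00 percentage points, and 2 pairs allow no p below 0.5.

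Low numbers of reads in peaks limit the comparison most on the EIF3G side, where 91, 40 and 35 of the 403 tested mRNAs had the 3 reads that were the fewest found. Binding of EIF3G below this number of reads was not detectable. Peaks were placed on 1 annotated transcript of each gene, and with the transcript of the longest 5′ UTR the difference in distance from the cap was −59.0 nt.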
